A study of Homo sapiens with 36 samples.

Results

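Replication-dependent histone genes code for the bulk histones that package newly copied DNA: the linker histone H1 and the core histones H2A, H2B, H3 and H4. The set described here held 68 of the 59607 features in the total RNA count tables, namely 5 H1, 17 H2A, 18 H2B, 13 H3 and 15 H4 genes. A feature entered when its Ensembl identifier mapped to a protein-coding gene named H1-1 to H1-5, or H2AC, H2BC, H3C or H4C with a number, and had at least 1 count. The identifier gave the current name for 64 genes, and an older symbol gave it for the other 4, H2AC18, H2AC19, H3C2 and H3C3. In the hg38 annotation 54 of the genes lie on chromosome 6, 13 on chromosome 1 and 1 on chromosome 12.

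All libraries came from derivatives of HCT116, an established human colon carcinoma line. The control line expressed TIR1, the plant receptor that marks AID-tagged proteins for degradation when auxin is present. The second line was a single CRISPR clone with an auxin-inducible degron (AID) on DIS3, the catalytic subunit of the nuclear RNA exosome, and also expressed TIR1 all the time. Each line was left untreated or given 500 uM auxin for 1 h before RNA was taken. Ribo-depleted total RNA was sequenced from the cytoplasm and from chromatin, and polyA-enriched RNA from the cytoplasm. Each of the 12 groups had 3 libraries. The labels call the cytoplasmic triplicates technical, and nothing says that the chromatin ones came from separate cultures, so every p-value measures the spread between these libraries only. A clone and its parent line can also differ for reasons other than the tag.

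These genes are expressed mainly in S phase, when DNA is copied. Most of their messages lack introns and are the best known exception among animal mRNAs in that they end in a short stem-loop instead of a poly(A) tail. The stem-loop is bound by SLBP, and a complex guided by the U7 small nuclear RNA and cut by CPSF3 forms the end of the message. The RNA exosome trims and degrades nuclear RNAs from their 3′ ends, and DIS3 is one of its nucleases. The comparisons ask what a short auxin treatment did to histone RNA on chromatin and in the cytoplasm of the clone and of the control line.

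The stem-loop is shown first because it sets these messages apart. It was searched in the annotated transcripts after each stop codon (hg38, GENCODE 29). Of the 31 members with at least 60 annotated bases after a stop codon 30 held this word, a stem of 6 pairs around a loop of 4 bases. H4C11 held one too, which made 31, starting 22 to 67 bases after the stop codon. Among members with at least 60 such bases the exception was H2BC11. H1-4 (57 annotated bases) and H4C3 (51) were searched as well and held none. Another 34 members have no annotated base after the stop codon, so their ends were not searched. Among 19059 other protein-coding genes with as much annotated sequence, 120 (0.63%) held such a word. The 6 forms follow, 5′ to 3′, with the loop in capitals and the stem in lower case.
Most frequent form, 17 H2A, H2B and H3 genes: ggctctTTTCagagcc
H4 form, H4C2, H4C5, H4C8, H4C11 and H4C16: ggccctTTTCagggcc
H2BC4, H2BC5, H2BC7 and H3C8: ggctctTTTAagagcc
H4C9, H4C14 and H4C15: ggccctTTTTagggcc
H3C6: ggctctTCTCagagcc
H2AC11: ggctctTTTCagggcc
Both H4 forms share their arms and differ in the loop, and H2AC11 joins the left arm of the most frequent form to the right arm of the H4 forms.

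The promoters also split by histone type. RefSeq (GRCh38.p14) held a window of 250 bases before to 50 bases after the start for 63 members; H2AC12, H3C11, H3C12, H4C1 and H4C3 had none. The octamer ATTTGCAT, read by POU2F1, was present on either strand in 11 of 16 H2A and 14 of 18 H2B windows and in 0 of the H1, H3 and H4 windows, against 1.77% of all 35116 promoters. At 11 places an H2A and an H2B gene start back to back with 218 to 330 bases between their starts, so these windows overlap and can share a copy. CCAAT was found in every H1, H2A, H2B and H3 window and in 3 of 13 H4 windows (34.6% of all promoters). GGTCCG, the core of an element named for H4 promoters, was found in 12 of 13 H4 windows and in 3 windows of the other types (11.3% of all promoters). TATAAA stood in 43 of 63 windows (68.3%), against 11.5% of all promoters. A match is a description of the letters and no evidence of binding. The H2B and the H4 gene with the highest cytoplasmic level among those matched show the 2 layouts in the 120 bases before their starts, with the matched words in capitals.
H2BC12, minus strand, chr6:27146856-27146975: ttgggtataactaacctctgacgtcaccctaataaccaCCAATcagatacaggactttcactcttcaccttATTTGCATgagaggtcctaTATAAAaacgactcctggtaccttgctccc
H4C4, minus strand, chr6:26189113-26189232: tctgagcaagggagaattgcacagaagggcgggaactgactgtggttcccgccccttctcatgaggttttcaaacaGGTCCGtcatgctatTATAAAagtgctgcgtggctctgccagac
H2BC12 carries CCAAT, the octamer and TATAAA in that order, whereas H4C4 carries GGTCCG and TATAAA.

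Libraries held 59.5 to 122.6 M counts in the cytoplasm, 50.3 to 139.0 M on chromatin and 25.9 to 33.1 M in the polyA set. Levels are counts per 1000000 counts (CPM) after TMM scaling, which sets each library by the bulk of its features. Epithelial keratins were strongly present (KRT8 at 1512 CPM in untreated control cytoplasm). DIS3 RNA was lower in the clone than in the control line by 0.85 on the log2 scale in the cytoplasm and by 0.70 on chromatin (adjusted p = 2.38e-09 and 4.23e-06, edgeR). It did not pass the test after auxin in either fraction of the clone (log2 -0.13 in the cytoplasm and 0.005 on chromatin). Auxin acts on the tagged protein, so these RNA values do not measure the depletion.

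Histone RNA was abundant in the cytoplasm and rested on a part of the gene set. In untreated control cytoplasm the members summed to 9019.5, 8743.3 and 9207.9 CPM, which is 0.874% of all counts. H2B genes gave the largest part, 2872.9 CPM, followed by H2A with 2313.3, H3 with 1755.2, H4 with 1088.0 and H1 with 960.86 CPM. Over the 24 total RNA libraries 39 members had at least 20000 counts each, 10 had 500 to 20000 and 19 had fewer than 500. In all 19 of the low genes at least 95% of the 50-base words of the transcripts occur in no other annotated gene, so shared sequence is small there. It is large elsewhere: H2AC18 and H2AC19, H3C14 and H3C15, and H4C14 and H4C15 are near-identical pairs, and how the authors' counting treated reads that map to both is not given in the sources used here. In 15 members fewer than 50% of these words are found in no other gene, and their values are uncertain for that reason. They are these 6 genes, H4C12 and H3C4 (both 0.0%), H2AC7 (2.0%), H2AC17 (13.7%), H2AC14 (16.3%), H4C11 (18.8%), H3C13 (19.6%), H2BC12 (25.9%) and H2AC13 (37.7%).

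Per kilobase of annotated exon, the only scale on which levels of different genes are compared here, H2BC12, 1 of the genes with much shared sequence, was highest at 1118.6 ± 22.3 CPM per kb (SD, n = 3). H3C2 followed at 974.2 ± 15.5, H2BC17 at 852.0 ± 38.1 and H1-2 at 795.0 ± 18.4 CPM per kb, each apart from its neighbour by more than 1 SD. H2AC12 (729.4 ± 23.3) and H2AC14 (723.0 ± 8.4 CPM per kb) did not differ beyond their spread. The same held for H2AC17 (651.5 ± 22.7) and H3C12 (647.6 ± 24.8 CPM per kb). H2AC17 and H3C12 share exon bases on the same strand, so their levels are not independent. Of the 50-base words of H3C12 59.1% are found in no other gene. The leading H4 genes were H4C4 at 667.6 ± 14.7 and H4C2 at 613.8 ± 16.2 CPM per kb, and the second H1 gene was H1-4 at 597.2 ± 15.1 CPM per kb. Genes with long annotated models, such as H2BC18 (133.1 ± 2.3 CPM per kb), rank lower on this scale than on counts.

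**Figure D1:**
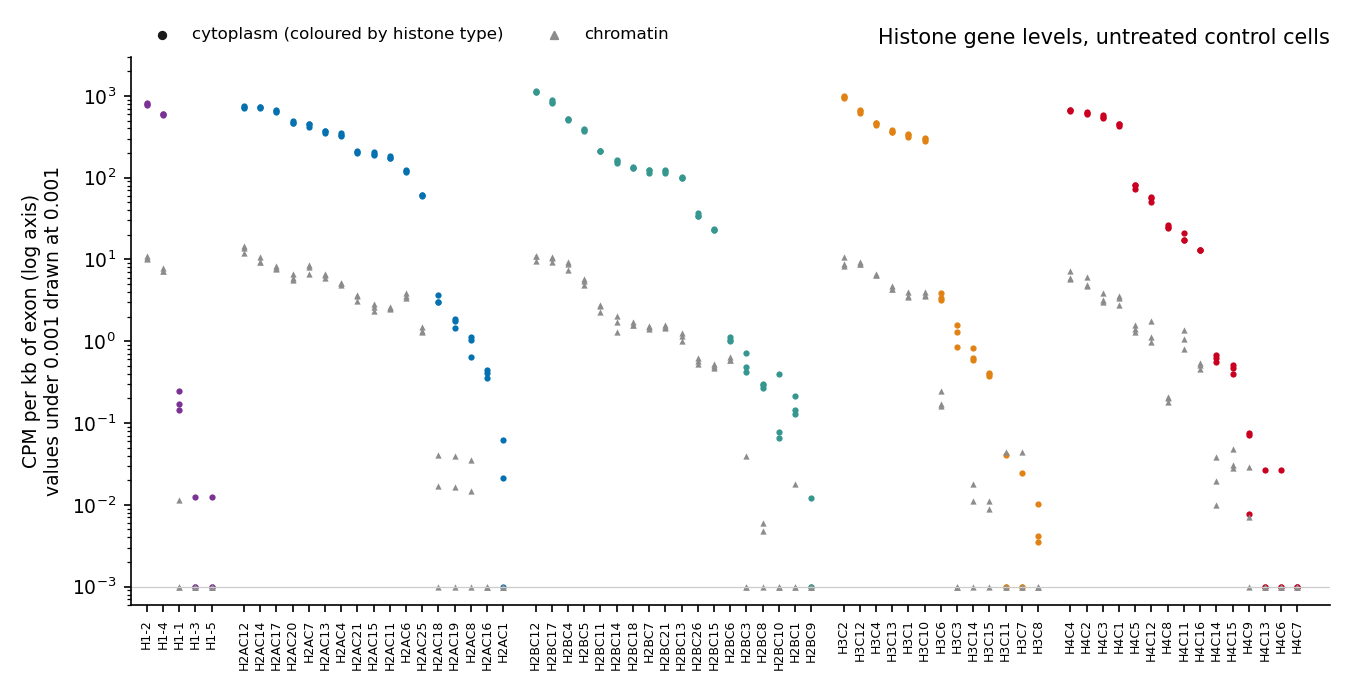
Level of each histone gene in untreated control cells, in CPM per kb of exon on a log axis; circles are cytoplasm, coloured by histone type, and triangles are chromatin, 1 point per library with values near 0 drawn at the lower line. The highest gene of each type stands at 667.6 CPM per kb (H4C4) or more, and each type also holds genes under 1 CPM per kb.

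Histone RNA was far scarcer on chromatin than in the cytoplasm. In untreated control cells the chromatin libraries held 119.26, 124.64 and 125.07 CPM of histone RNA in all, or 0.0121% of counts. In a joint fit of both fractions 54 members could be tested. All 54 were lower on chromatin at an adjusted p under 0.05, and 0 were higher (edgeR quasi-likelihood test with Benjamini-Hochberg adjustment over all features), against 44.0% of all features lower and 46.2% higher. The median log2 difference of the tested members was -6.80, against 0.096 over all features tested and -0.546 over protein-coding genes. By type the medians ran from -6.96 for H2B, -6.92 for H1 and -6.88 for H3 to -6.66 for H2A and -6.45 for H4. Scaling by library size alone moved every feature up by 0.659 (log2) and the members' median to -6.14.

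Single genes spanned a wide range. H4C3 stood at 254, 231 and 239 CPM in the cytoplasm and at 1.30, 1.68 and 1.39 CPM on chromatin, and the log2 difference was -8.05 ± 0.10 (SE, adjusted p = 5.91e-41, edgeR). H4C1 followed at -7.69 ± 0.10. H2BC12 was at -7.36 ± 0.09 and H1-2 at -6.88 ± 0.12. H2BC6 lay at the other end, with 2.63, 2.91 and 2.69 CPM in the cytoplasm, 1.53, 1.66 and 1.54 CPM on chromatin and a difference of -1.45 ± 0.12. H3C3 had no chromatin count in these libraries and was at least 78.2-fold lower there, and H2AC16 at least 24.3-fold lower, both set against a floor of 3 counts over the group. In 10 members, these 2 included, chromatin held fewer than 20 counts. With the 2 genes at their bound the median was -6.77.

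By annotated gene structure, the 41 tested members with a single exon in every model had a median of -6.88 (-8.72 to -4.81), and the 13 with a model of 2 or more exons a median of -6.18 (-7.65 to -1.45). The -8.72 end is the fitted value of H3C3, which had no chromatin count, so only its bound holds. The ranges overlap, and the difference between the classes was not tested. The 3 smallest differences were all in the second group: H2BC6, H4C15 (-4.24) and H3C6 (-4.75). Models of several exons are also longer and reach into neighbouring sequence, and what part of the counts came from there was not tested.

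Cytoplasmic mRNAs used as markers of that fraction gave similar values. All 6 (GAPDH, ACTB, EEF1A1, RPLP0, RPL3 and TUBA1B) were lower on chromatin, with a median of -6.34. Their sum in the chromatin libraries of untreated control cells was 437.78 to 453.99 CPM. Of 12 variant histone genes listed as polyadenylated 12 were lower on chromatin with a median of -5.07. The median of 20 S phase genes was -2.88. Of 5 RNAs listed as chromatin markers 4 were tested. MALAT1, NEAT1 and KCNQ1OT1 were higher on chromatin, by 1.09, 3.64 and 4.48, and RN7SK was lower (-6.66), against its list's name.

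**Figure D2:**
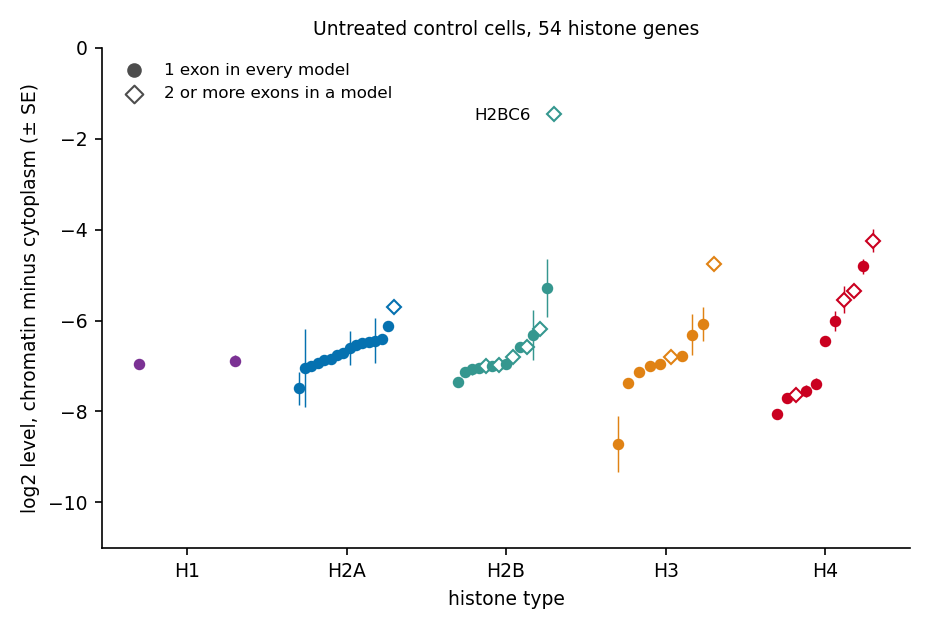
Log2 level on chromatin minus cytoplasm in untreated control cells for the 54 tested histone genes, by histone type, with SE bars; filled circles have 1 exon in every model and open diamonds have 2 or more in a model. All 54 genes lie below 0, and H2BC6, at -1.45, is the highest. H3C3 and H2AC16 had no chromatin count, so their points are fitted values and not measured differences.

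After 1 h of auxin histone RNA on chromatin was higher in the DIS3-AID clone. The members summed to 124.76, 118.17 and 115.07 CPM before and to 166.32, 166.43 and 147.21 CPM after auxin, a rise of the mean by 34.1% with no overlap between the groups. Of the 43 members tested on chromatin, 25 rose and 0 fell (edgeR, adjusted p under 0.05), against 11.0% of all features higher and 9.54% lower. The median log2 change of the tested members was 0.41, against 0.004 over all features and -0.032 over protein-coding genes, and 42 of 43 had a value above 0. Fewer members pass when 1 library is left out: 13 without the second auxin library, 15 without the first auxin library and 16 without the third untreated library, in each case with 0 lower.

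Every histone type took part. Both tested H1 genes rose, as did 6 of 12 H2A, 7 of 13 H2B, 5 of 7 H3 and 5 of 9 H4 genes. The type sums were higher by 39.1% for H1, 28.7% for H2A, 32.6% for H2B, 40.4% for H3 and 41.4% for H4. The type medians ran from 0.34 for H2B to 0.54 for H4 on the log2 scale, and differences between types were not tested.

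Among linker histone genes H1-2 stood at 7.61, 6.06 and 6.43 CPM untreated and at 9.75, 10.3 and 8.83 CPM after auxin. Its log2 change was 0.52 ± 0.13 (SE, adjusted p = 0.00833, edgeR). H1-4 rose by 0.41 ± 0.12. In both genes all auxin libraries lay above all untreated ones.

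H2A and H2B form dimers within the nucleosome. H2AC14 stood at 3.58, 2.91 and 2.88 CPM untreated and 5.28, 4.31 and 4.39 CPM with auxin, so the groups did not overlap. H2BC4 stood at 7.32, 7.13 and 6.47 CPM untreated and 10.1, 10.4 and 10.1 CPM with auxin, a log2 change of 0.55 ± 0.10 (adjusted p = 0.000405, edgeR). Of the 2 leading H2B genes by level H2BC12 rose by 0.34 ± 0.12 (adjusted p = 0.0435), close to the threshold. H2BC17 did not pass, with a log2 value of 0.22 (adjusted p = 0.19) and overlapping libraries.

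H3 and H4 form the core tetramer. H3C12 stood at 6.72, 5.74 and 5.91 CPM untreated and 9.30, 8.92 and 8.69 CPM with auxin, a log2 change of 0.55 ± 0.11 (adjusted p = 0.00149, edgeR). It shares exon bases with the H2A gene H2AC17 on the same strand, so its count may include reads of that gene. H4C1 had the highest fitted change, 0.77 ± 0.19 (adjusted p = 0.00734), from 0.801, 0.689 and 0.559 CPM to 1.03, 1.40 and 1.16 CPM. These levels are low, with 156 counts over the 3 untreated libraries. Without auxin H4C1 was already lower in the clone than in the control line (log2 -0.58). Its change was not called different from that in the control line. H4C4 and H4C2 rose by 0.56 ± 0.17 and 0.58 ± 0.18, and in both the third auxin library was the lowest of its group. For H4C4 that library (1.61 CPM) fell within the untreated range of 1.38 to 1.65 CPM, so its groups overlapped. H3C6 was the 1 member below 0, at -0.07 (adjusted p = 0.85).

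**Figure D3:**
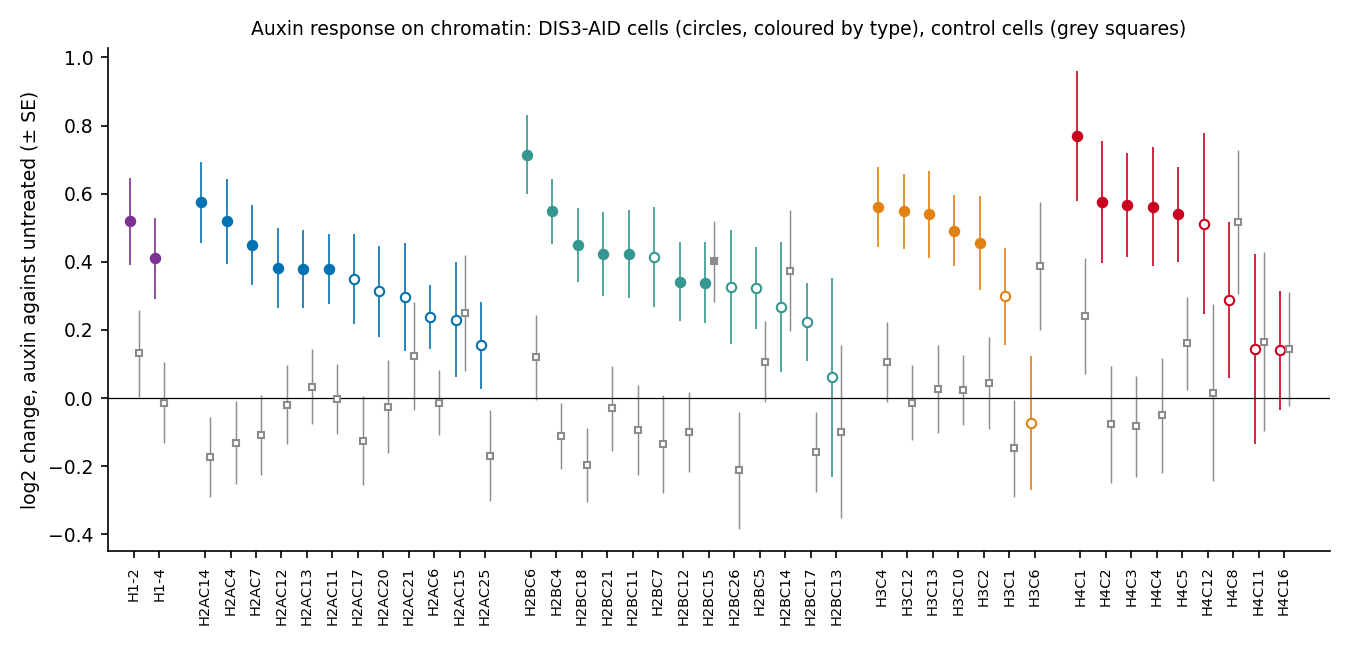
Log2 change on chromatin after auxin for each tested histone gene, with SE bars: circles coloured by type are the DIS3-AID clone and grey squares are the control line. The circles lie above 0 for 42 of 43 genes, and the squares scatter around 0.

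In the control line the same treatment left histone RNA on chromatin without a common shift. The sums were 119.26, 124.64 and 125.07 CPM untreated and 138.82, 125.28 and 100.71 CPM with auxin, so the auxin libraries spread to both sides of the untreated ones. Of 43 members 1 rose, H2BC15 by 0.40 (adjusted p = 0.0263, edgeR), and 0 fell, against 9.02% of all features higher and 7.97% lower. The call for H2BC15 was lost when any of 4 libraries was left out (untreated 2 or 3, auxin 1 or 2). The median was -0.01.

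The difference between the lines was tested directly. In 9 of 43 members the change was larger in the clone than in the control line and in 0 it was smaller (edgeR interaction test, adjusted p under 0.05), with 27 at an unadjusted p under 0.05. Of all features 8.54% passed in the higher and 9.2% in the lower direction. The members' median difference was 0.44. H2AC14, most of whose sequence is shared with other genes, differed by 0.75 ± 0.17 (adjusted p = 0.00444), H2BC4 by 0.66 ± 0.14 (0.00236) and H2AC4 by 0.65 ± 0.17 (0.0145). The others were H2BC18, H2BC6, H2AC7, H3C10, H3C12 and H4C3. The number was 5 without the third untreated control library and 15 without the first control auxin library, which held the highest histone sum of its group.

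**Figure D4:**
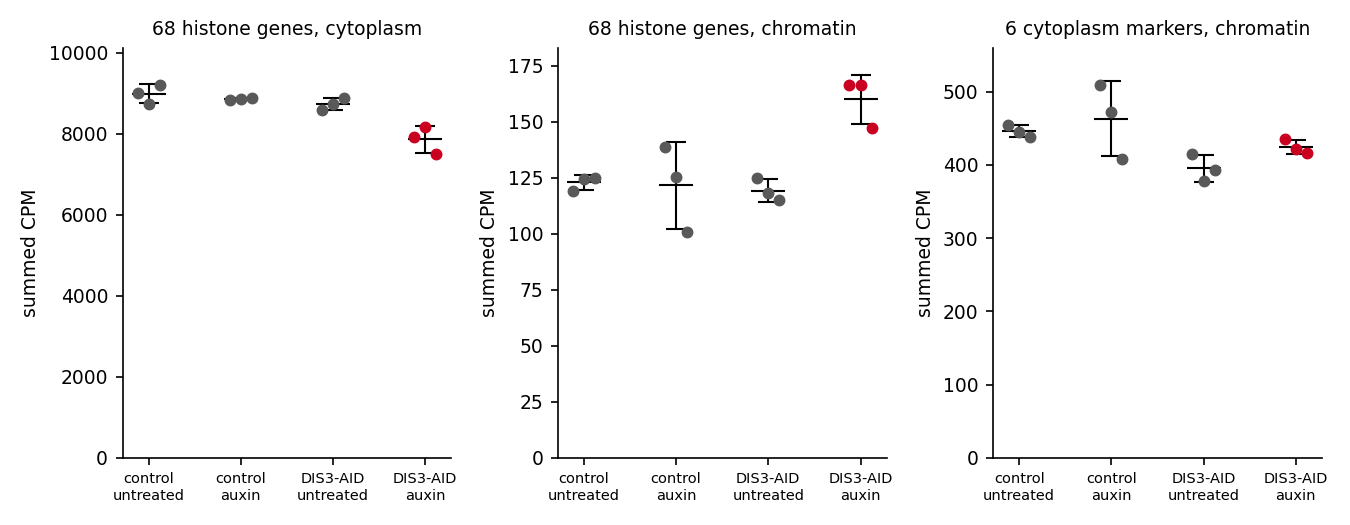
Summed CPM per library in each group of 3, for the histone genes in the cytoplasm and on chromatin and for the cytoplasm markers on chromatin; points are libraries, and the bars give the mean and SD. On chromatin the 3 auxin libraries of the DIS3-AID clone, at 147.21 to 166.43 CPM, lie above all untreated and control libraries.

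The marker sums on chromatin differed by a smaller percentage. Cytoplasmic markers on chromatin summed to 414.44, 378.17 and 392.27 CPM untreated and 435.59, 421.25 and 416.07 CPM with auxin in the clone. The difference was 7.43%, also without overlap, and 0 of 6 passed the test (edgeR, median log2 0.09, with 1 at an unadjusted p under 0.05). Across the control libraries the histone sum and this marker sum were both highest in the first auxin library (138.82 and 508.91 CPM) and lowest in the third (100.71 and 407.76 CPM). The chromatin markers were also higher. In the clone's chromatin they summed to 3826.5 to 4439.7 CPM untreated and 4298.0 to 5479.7 CPM with auxin, a mean higher by 20.6% with overlapping libraries. Of the 4 tested 2 rose, MALAT1 by 0.30 and NEAT1 by 0.24, and 0 fell (edgeR, median 0.19). In the control line their sum was higher by 4.98%, and NEAT1 fell by 0.20. The part of either marker shift in the histone values on chromatin was not tested. Since TMM values are relative, a change in RNA per cell and a change in the share of a fraction cannot be told apart in either fraction.

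In the cytoplasm the clone showed a smaller change in the other direction. The members summed to 8596.4, 8736.4 and 8897.9 CPM untreated and 7924.3, 8164.7 and 7508.3 CPM with auxin, a mean lower by 10.0% without overlap. As a share of all counts, which uses no TMM factor, the sum went from 0.864% to 0.833%. Of 55 tested members 24 fell and 1, H2BC6, rose (edgeR, adjusted p under 0.05), against 13.2% of all features lower and 21.1% higher and, among protein-coding genes alone, 2862 of 14341 lower. The members' median was -0.14, against -0.051 over all features and -0.10 over protein-coding genes. The split depends on scaling: with library sizes alone 8 fell and 1 rose, and the median of all features moved from -0.051 to 0.049. Leaving out the third untreated library gave 13 lower and 2 higher, and leaving out the third auxin library 13 lower and 1 higher. Markers of the cytoplasm were lower by 7.78% in sum, with 4 of 6 called lower, and the part of this common shift in the histone values was not tested.

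H2A genes made up 11 of the 24 that fell, of 16 tested. The others were 2 of 3 H1, 5 of 15 H2B, 1 of 10 H3 and 5 of 11 H4 genes. H2BC21 stood at 304, 294 and 276 CPM untreated and 241, 246 and 235 CPM with auxin, a log2 change of -0.28 ± 0.05 (adjusted p = 0.000282, edgeR). H2AC21 went from 81.6, 78.1 and 74.3 to 64.2, 68.2 and 62.5 CPM (-0.26 ± 0.05), and H1-2 from 528, 566 and 479 to 451, 462 and 414 CPM (-0.24 ± 0.06). The 3 largest falls by fitted value were in H2AC8 (-1.04), H4C14 (-0.43) and H2BC14 (-0.30). H2AC8 rests on 28, 19 and 31 counts before and 16, 9 and 13 after auxin, and H4C14 is 1 of a near-identical pair. H2BC14 stood at 48.3, 48.2 and 49.8 CPM untreated and 37.0, 42.8 and 38.8 CPM with auxin.

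Auxin in the control line gave no call in the cytoplasm. Of 55 members 0 rose and 0 fell by edgeR and 0 by DESeq2, with 5 at an unadjusted p under 0.05, and only 0.0217% and 0.0261% of all features were higher or lower. The interaction test in the cytoplasm called the auxin effect lower in the clone for 10 members and higher for 1, against 3.31% and 16.1% of all features. Those lower included H2AC21 (-0.31 ± 0.07, adjusted p = 0.00412), H4C16 (-0.27) and H4C5 (-0.26). This count fell to 1 lower with library sizes alone, and to between 3 and 6 lower when 1 of 6 libraries was left out: untreated control 2 or 3, control auxin 1 or 3, untreated clone 2 or clone auxin 3.

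The directions in the 2 fractions were opposite for most genes of the clone. Of the 43 members tested in both, 39 had a value above 0 on chromatin and below 0 in the cytoplasm. Of all 20890 features tested in both 24.8% had this pattern. In 14 members both changes passed the test (11.2% of all features), and 13 of these rose on chromatin and fell in the cytoplasm (0.608% of all features). The counts depend on scaling: with library sizes alone 33 members had the pattern and 4 passed in both directions, and with TMM from other protein-coding genes 36 and 6. H3C12, which shares exon bases with H2AC17, was one, with 0.55 on chromatin and -0.17 ± 0.05 in the cytoplasm. H2BC6 was the other member called in both, and it rose in both.

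**Figure D5:**
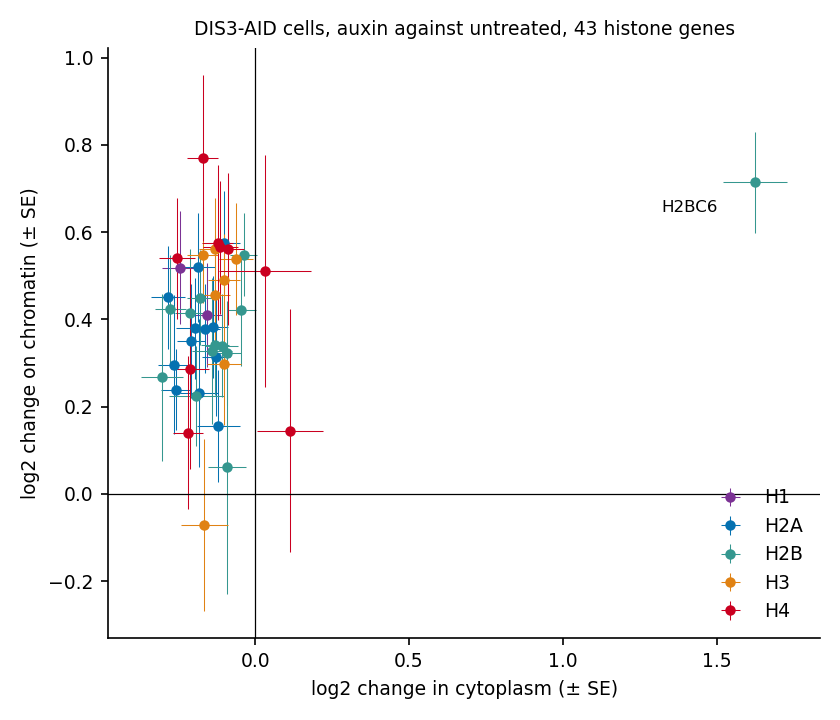
Log2 change after auxin in the DIS3-AID clone for 43 histone genes, cytoplasm on the horizontal and chromatin on the vertical axis, with SE bars and colours by histone type. In all, 39 genes lie in the upper left, and H2BC6 lies apart at 1.63 and 0.71.

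A joint fit tested whether the auxin effect in the clone was larger on chromatin than in the cytoplasm. It was in 39 of 54 members and smaller in 1, H2BC6 (edgeR, adjusted p under 0.05), against 22.1% and 11.0% of all features. Among protein-coding genes alone the shares were 36.1% and 4.55%. The median difference was 0.715, against 0.16 over all features and 0.233 over protein-coding genes. H4C1 (1.12 ± 0.17) and H4C5 (0.98 ± 0.14) were the largest with adequate counts, at adjusted p of 2.35e-06 and 5e-07. The fitted value of H2AC8 (4.51 ± 1.69) rests on 3 chromatin counts after auxin and 0 before, so no fold is given. Listed genes outside the set shifted too: 6 of 6 cytoplasm markers (median 0.40), 15 of 20 S phase genes (0.30) and 9 of 12 variant histone genes (0.30) were called in the same direction. TMM factors of the joint fit were 0.9203 to 0.9719 in the clone's auxin cytoplasm and 0.7456 to 0.7954 in the other cytoplasm groups. With library sizes alone 27 members were called higher and 1 lower, the members' median was 0.39 and that of all features -0.17.

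H2BC6 was the 1 member that rose in the cytoplasm. In the clone's cytoplasm it stood at 2.84, 2.03 and 2.48 CPM untreated and at 7.14, 7.35 and 8.24 CPM with auxin, a log2 change of 1.63 ± 0.10 (adjusted p = 2.17e-10, edgeR). The control line stayed at 2.63 to 2.91 CPM untreated and 2.65 to 2.87 CPM with auxin, and the interaction was 1.61 ± 0.15 (adjusted p = 1.32e-07). On chromatin it went from 1.70, 1.87 and 2.12 to 3.0, 3.46 and 2.85 CPM (0.71 ± 0.12, adjusted p = 0.000229). Its gene covers chromosome 6, positions 26172059 to 26184655 on the plus strand (hg38). One annotated model is a single exon of 497 bases at 26183730 to 26184226. The other has 4 exons, of which the first 3 (730, 135 and 371 bases) lie upstream of the coding exon of 1349 bases. The count covers all of these 2585 bases, so it does not tell the short histone message from the longer RNA. The gene on the opposite strand, AL353759.1, overlaps the first exon. It had 13, 23 and 21 cytoplasmic counts untreated and 158, 88 and 96 with auxin (log2 2.56 ± 0.26, adjusted p = 1.38e-07, edgeR), and 48, 41 and 44 against 41, 17 and 44 on chromatin (-0.11 ± 0.24). The strand setting of the counting is not given, so reads of the 2 genes cannot be told apart where they overlap.

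Other members share exon bases as well. H3C12 and H2AC17, and H2BC15 and H2AC16, overlap on the same strand, and H3C4 and H2AC7 share bases with AL031777.3 on the same strand. Opposite strands overlap for H2AC15 and H2BC15, H3C14 and H4C14, H3C15 and H4C15, H2BC18 and FCGR1A, and H2AC21 and BOLA1. BOLA1 rose by 1.1 ± 0.07 in the clone's cytoplasm (adjusted p = 1.17e-10, edgeR), where H2AC21 fell. With only members that share no base on either strand, 19 of 34 rose on chromatin in the clone and 17 of 41 fell in the cytoplasm, and the interaction on chromatin was called in 5 of 34. This subset was added after the values were seen.

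Without auxin the clone and the control line were close in histone RNA. The cytoplasm sums were 8990.2 ± 233.7 CPM in the control and 8743.6 ± 150.9 CPM in the clone (SD, n = 3), with overlapping libraries. Of 55 members 2 were higher and 6 lower in the clone (edgeR), against 9.67% and 12.4% of all features. H3C15 (0.49) and H2BC21 (0.15) were higher. H3C15 is 1 of a near-identical pair with H3C14 and had 198 counts over the untreated control libraries. It was the only 1 of 10 tested H3 genes with a value above 0, and H3C14 lay below 0. H3C3 (-1.21), H2BC13 (-0.57) and H4C8 (-0.51) were the lowest. H2BC13 stood at 47.8, 47.8 and 49.7 CPM in the control and 29.8, 32.3 and 35.5 CPM in the clone. H4C8 stood at 56.8, 52.2 and 54.5 against 36.8, 38.5 and 39.2 CPM, again without overlap. H3C3 rests on 150 and 53 counts.

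On chromatin 1 of 43 members was higher in the clone, H2BC15 (0.32), and 1 was lower, H4C1 (-0.58 ± 0.18, adjusted p = 0.0206, edgeR), against 15.2% and 17.4% of all features. Both calls were lost without untreated control library 1 or 3 or untreated clone library 2 or 3. Without the second control library H2BC15 alone was lost, and without the first clone library 4 members were lower and 0 higher. H4C1 was at 1.12, 0.856 and 1.07 CPM in the control and 0.801, 0.689 and 0.559 CPM in the clone.

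In polyA-enriched cytoplasmic RNA the members that could be examined stood at low levels. Of the 68 members 3 have a row in those tables, H2BC18, H3C12 and H4C16, and the other 65 were not analysed there. H2BC18 stood at 0.495, 0.512 and 0.511 CPM in the untreated clone and 0.876, 0.859 and 0.681 CPM with auxin, and its total RNA level in the same fraction was 421 to 431 CPM untreated. The log2 value was 0.67 ± 0.31 (adjusted p = 0.159, edgeR). H3C12 went from 1.24, 1.02 and 1.61 to 1.51, 1.87 and 2.01 CPM, with overlapping libraries and a log2 value of 0.48 ± 0.21 (adjusted p = 0.136). Its exon bases are partly shared with H2AC17, which has no row in those tables. Thus 0 of 2 tested members passed by edgeR and 0 by DESeq2, with 2 at an unadjusted p under 0.05, against 13.0% of all features higher and 4.23% lower. H4C16 had 3 to 13 counts per group and was not tested.

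Genes that make or remove histone messages were read on chromatin beside all features, of which 11.0% were called higher and 9.54% lower. Whether these short lists differed from that share was not tested. Of 8 genes for histone gene transcription 1 rose and 1 fell in the clone after auxin (edgeR, median -0.02): POU2F1, which binds the octamer, by 0.19, and CCNE1, the cyclin whose kinase acts on the activator NPAT, by -0.30. NPAT had a value of 0.02 (adjusted p = 0.884). Of 17 genes for 3′ end processing 0 rose and 2 fell, CPSF3 (-0.20), the nuclease of the cleavage, and SRRT (-0.17), which links cap binding to processing. SLBP had a value of -0.02 (adjusted p = 0.849). RNU7-1, the U7 RNA, had 0.58 and did not pass (adjusted p = 0.165). Of 10 genes for histone mRNA decay 0 were called (edgeR, median -0.005), with 1 at an unadjusted p under 0.05. ERI1, which trims the stem-loop, had -0.08.

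In the cytoplasm 0 of 8, 0 of 17 and 0 of 10 genes of the same lists rose and 1, 5 and 1 fell, with medians of -0.12, -0.12 and -0.11. Protein-coding genes had a median of -0.10 there, and library sizes alone would move all of these up by 0.1. Of the variant histone genes listed as polyadenylated 2 of 11 rose on chromatin, among them H2AJ by 0.89 (adjusted p = 0.00385, edgeR), and MACROH2A2 fell by 0.24, for a median of 0.05. S phase genes gave 0 of 20 higher and 3 lower on chromatin (median 0.01), and G2/M genes 0 of 12 either way, with 1 at an unadjusted p under 0.05 (edgeR). On the clone's chromatin 11.0% of all features were higher and 9.54% lower. In the control line 7 of 20 S phase genes rose on chromatin after auxin (median 0.14), among them MCM2 (0.33) and TK1 (0.35), against 9.02% of all features. The replication-dependent genes had a median of -0.01 in that comparison.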

How the data were processed

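The authors deposited 1 table of read counts per feature for each of the 36 libraries, made with STAR 2.7.3a, Cufflinks 2.2.1 and featureCounts 2.0.0 on hg38, per the submitters' processing notes. Strand setting and the treatment of reads that map to several genes or to overlapping genes are not given in the sources used here, and they bear on the near-identical and overlapping histone genes. The kits were strand-specific, per the labels' protocols. Values were whole numbers in every table. No pair of replicates agreed within sampling noise (chi-square per degree of freedom 2.61 or more).

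Each of the 11 comparisons was fitted on all features with edgeR 4.0.16 in R 4.3.3 (TMM scaling, filterByExpr with a minimum count of 10, robust quasi-likelihood F test), within one fraction or, for comparisons between fractions, over both. Calls are Benjamini-Hochberg adjusted p under 0.05 over all features tested. Standard errors were derived from the fold change and the F statistic. Cytoplasm and chromatin fits used 12 libraries each and the joint fit 24. Per-kilobase levels divide CPM by annotated exon bases. The fit was also run on simulated counts, with the same spread for every gene and changes placed only in well-counted genes. That run does not cover members with few counts. DESeq2 1.42.0, other scalings, no filter, a replicate block, members without shared bases and leaving out each library were tried as alternatives.

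The members, gene lists and named genes were chosen with earlier results of these data known. The rule named the 2 genes of each histone type with the highest cytoplasmic level per kilobase in untreated control cells, the 3 largest rises and falls among the called members of each comparison and the members tested in polyA RNA. Other genes were named after their values were seen.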

Additional observations from a re-analysis of the deposited data

Results flagged for a closer look

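Results appear here because the auxin effect differed between the lines or between the fractions in a test of the difference itself (edgeR quasi-likelihood test, Benjamini-Hochberg adjusted p under 0.05). In the cytoplasm 11 of 55 tested members differed between the clone and the control line, 1 higher and 10 lower. Of all features 16.1% passed there in the higher and 3.31% in the lower direction. The auxin effect on H2BC6 was larger in the clone by 1.605 on the log2 scale. The auxin effects on H2AC21 (-0.308), H4C16 (-0.266) and H4C5 (-0.264) were lower in the clone. On chromatin 9 of 43 tested members differed, led by H2AC14 (0.748), H2BC4 (0.659) and H2AC4 (0.65). All 9 were in the higher direction, against 8.54% of all features higher and 9.2% lower. Between the fractions of the clone 40 of 54 tested members differed, 39 higher and 1 lower, against 22.1% and 11.0% of all features. The auxin effects on H4C1 (1.118) and H4C5 (0.976) were higher on chromatin, and that on H2BC6 (-0.73) was lower there. The value of H2AC8 (4.512) rests on 3 chromatin counts.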

How the results depend on the processing

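Over all settings other than leaving out a library 76 counts of members stayed within 1.5 times the reported count and 14 did not. For auxin in the clone's cytoplasm 9 members were called with library sizes alone and 11 with TMM from other protein-coding genes, in place of 25. For the interaction in the cytoplasm the number was 2 with library sizes alone (1 higher and 1 lower), 3 with protein-coding TMM and 7 without the filter on low counts, in place of 11. For the interaction on chromatin it was 23 without the filter and 5 among members sharing no base on either strand, in place of 9. For the clone against the control line on chromatin it was 6 without the filter and 1 in either subset without shared bases, in place of 2. For control auxin on chromatin it was 0 in both subsets, in place of 1. Members called higher on chromatin and lower in the cytoplasm of the clone numbered 4 with library sizes alone and 6 with protein-coding TMM, in place of 13, in settings run for this count after the data were seen. With protein-coding TMM the clone's cytoplasm without auxin gave 4 members higher and 6 lower. H4C4 in the clone's cytoplasm turned from -0.09 to 0.01 with library sizes alone, neither past the threshold. The cause was not tested in any of these. Leaving out each library in turn gave 14 to 24 called members for auxin in the clone's cytoplasm, 4 to 11 for the interaction there, 13 to 25 for auxin in the clone's chromatin, 0 to 1 for control auxin on chromatin, 0 to 4 for the clone against the control line on chromatin and 5 to 15 for the interaction on chromatin. Replicate numbers were not taken to pair libraries: the deviations of same-numbered libraries correlated at -0.174 to 0.134, and between 0 and 5 of 6 libraries per comparison correlated best with their own number. With the replicate block 25 members were called on chromatin and 29 in the cytoplasm of the clone, and the interaction on chromatin had 13. Depth limits the 19 members with fewer than 500 counts over 24 libraries.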

Other observations

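All 19 members with fewer than 500 counts over the 24 total RNA libraries lie on chromosome 6 (hg38), and 18 of them have another such member as the next in position, which was not tested. The longest run held 7 members, H1-3, H4C6, H4C7, H3C7, H2BC9, H3C8 and H2BC10, between positions 26234268 and 26273356, with 2 to 67 counts each. Another 4 in a row, H2AC16, H1-5, H3C11 and H4C13, lay between 27865355 and 27873510 with 2 to 146 counts. A run of 3, H2AC1, H2BC1 and H1-1, opened the cluster between 25726132 and 26017732 with 7 to 106 counts. H2BC3 with H3C3 (226 to 389 counts) and H2BC8 with H2AC8 (376 to 402 counts) were pairs of neighbours. H4C9, with 80 counts between 27138588 and 27139881, stood alone.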
